A study of Drosophila melanogaster with 24 samples.

Results

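Sites between closely spaced gene ends were chromatin regions called for CLOCK (CLK) or CYCLE (CYC) whose midpoint lay within 500 bp of ends of 2 or more different protein-coding genes. They were taken by position alone from 6 deposited peak lists of Drosophila melanogaster, on the arms 2L, 2R, 3L and 3R and outside the stretch of 2L where the histone genes are clustered. Of 7810 peaks in the lists, 6477 lay on these arms outside the cluster, and 552 of them met the rule. A further 1246 peaks lay within 500 bp of an end of exactly 1 gene, and 4679 lay near no gene end. By list, 129 of the 552 were CLK peaks of head, 96 CYC peaks of head, 144 CLK peaks of testis, 68 CYC peaks of testis, 4 CLK peaks of ovary and 111 CYC peaks of ovary.

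The study profiled CLK and CYC by chromatin immunoprecipitation and sequencing (ChIP-seq) with an antibody to GFP in fly heads, testes and ovaries. For each of the 6 combinations of protein and tissue there were 2 libraries labelled GFP and 2 labelled input, 24 libraries in 12 groups. Each replicate came from 200 heads, or from 200 pairs of testes or ovaries, taken at zeitgeber time 10 h, and 5% of the chromatin served as input. All groups shared the time of collection. The sources used here do not give the genotype, strain, age or the driver of any tag, and libraries of untagged flies were not analysed here. Each list stands for 1 protein and tissue and holds positions alone, so height, enrichment and depth were unknown and no value carries an error between replicates. Peaks hold no expression, so the tissue labels could not be checked by marker genes; vri and tim, known CLK targets, had CLK peaks in head near an end.

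CLK and CYC are bHLH-PAS proteins that bind DNA as a pair and drive the daily transcription of period, timeless, vrille and Pdp1. Fly genes are often packed so closely that the start of one lies beside the start or the end of the next, and a factor bound there sits beside both genes. Which of the neighbours such a site serves, if any, cannot be read from its position. The gene table used here gives the ends of genes without their strand, so starts were not told apart from 3′ ends, and a pair may be head to head, tail to tail or in tandem.

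Sites of this kind were most frequent in the head lists and most of all for CYC in head. They made up 14.9% of the CLK peaks of head (129 of 865, exact 95% interval 12.6 to 17.5%) and 27.4% of the CYC peaks of head (96 of 351, 22.8 to 32.3%). In testis the shares were 6.27% for CLK (144 of 2297, 5.31 to 7.34%) and 4.79% for CYC (68 of 1421, 3.73 to 6.03%). In ovary they were 1.90% for CLK (4 of 210, 0.521 to 4.80%) and 8.33% for CYC (111 of 1333, 6.90 to 9.94%). Of all bases on these arms, 5.02% lay within 500 bp of ends of 2 or more genes. The intervals of both head lists, of CLK in testis and of CYC in ovary lay above that value, that of CYC in testis held it, and that of CLK in ovary lay below it.

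**Figure D1:**
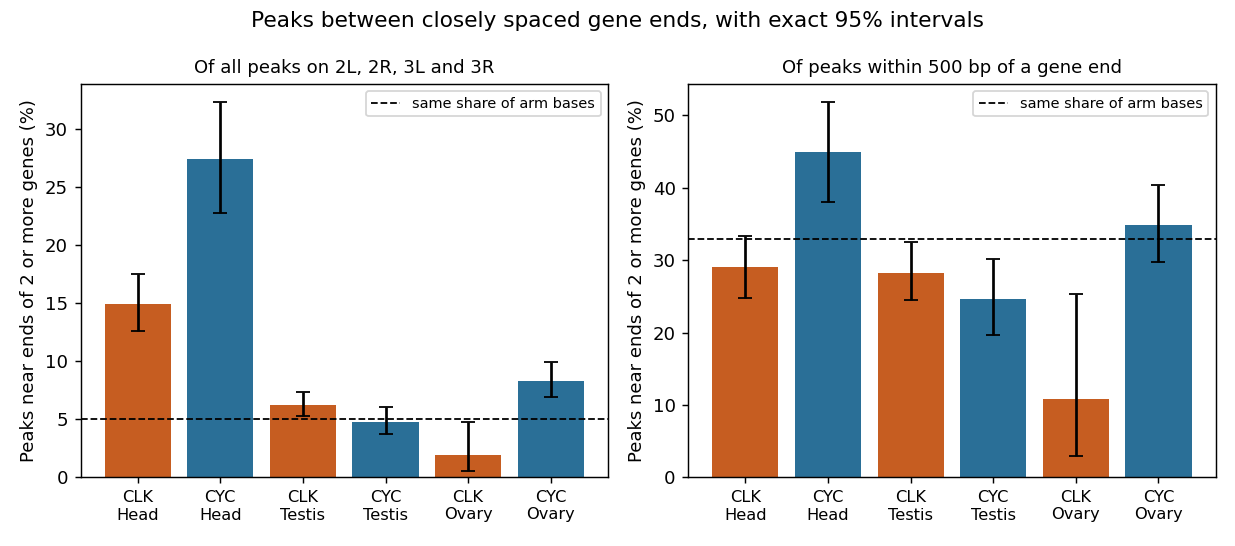
Share of peaks near ends of 2 or more genes (%, y axis) for each protein and tissue (x axis), of all peaks on the arms (left) and of peaks within 500 bp of any gene end (right); bars are shares, error bars exact 95% intervals and dashed lines the same share over arm bases (5.02% and 32.9%). CYC in head is the highest bar in both panels, at 27.4% and 44.9%.

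Head exceeded testis by 8.64 points for CLK (exact Fisher test, two-sided, p adjusted by Benjamini-Hochberg (BH) = 5.56e-13) and by 22.6 points for CYC (exact Fisher test, BH-adjusted p = 3.60e-30). Head also exceeded ovary, by 13.0 points for CLK and by 19.0 points for CYC (exact Fisher test, BH-adjusted p = 9.24e-09 and 2.74e-18). These 4 differences passed in each of 7 alternative settings. Testis minus ovary was 4.36 points for CLK and -3.54 points for CYC (exact Fisher test, BH-adjusted p = 0.00941 and 2.87e-04), but both calls were lost with a window of 250 bp, at 1.27 and -0.838 points, and in the widest 50% of peaks, at 3.32 and -0.381 points. The CLK call was lost as well without overlapping or nested gene pairs, at 1.85 points. Within head, CLK minus CYC was -12.4 points (exact Fisher test, BH-adjusted p = 1.57e-06). The same difference was 1.48 points in testis (exact Fisher test, BH-adjusted p = 0.0588) and -6.42 points in ovary (exact Fisher test, BH-adjusted p = 4.23e-04), where it was lost with a window of 250 bp (-1.70 points) and in the widest 50% (-3.37 points). Peaks were the units of these tests, which therefore compare lists and not replicates.

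The lists also differed in how many peaks lay near any gene end. Counted only among peaks within 500 bp of a gene end, the share near 2 or more genes was 29.0% for CLK in head (129 of 445, 24.8 to 33.4%) and 44.9% for CYC in head (96 of 214, 38.1 to 51.8%). For testis it was 28.3% (CLK) and 24.6% (CYC), and for ovary 10.8% (CLK) and 34.9% (CYC). Of the arm bases near any gene end, 32.9% were near 2 or more genes, and CYC in head alone had an interval above that value. The intervals of CLK in testis (24.5 to 32.5%), CYC in testis (19.7 to 30.2%) and CLK in ovary (3.03 to 25.4%) lay below it, so CLK in testis was above the value for bases among all peaks and below it among peaks near an end. CLK of head and CLK of testis differed by 0.642 points in this share (exact Fisher test, BH-adjusted p = 0.830), and the sign turned with a window of 250 bp (-3.50 points), while without overlapping or nested pairs it was 6.90 points and passed. CYC of head exceeded CYC of testis by 20.2 points (exact Fisher test, BH-adjusted p = 2.95e-05), and CLK minus CYC within head was -15.9 points (exact Fisher test, BH-adjusted p = 3.42e-04). With a window of 250 bp these became 11 and -10.1 points and no longer passed.

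The sites were spread over many gene pairs, and 27 pairs had sites in 2 or more lists. How often genes at other peaks recur was not counted, so the low reuse is not shown to be particular to the sites. The 552 peaks lay at 523 different pairs, counting the 2 genes with the nearest ends, which was 5.93% of the 8819 pairs on the arms whose ends lay within 1000 bp of each other. Only CG31681 and CG4271 had 2 peaks of the same list, at 2L 2285334 to 2285537 and at 2L 2286198 to 2286634, both of CYC in testis. All 4 arms contributed, from 26 to 42 CLK head sites and from 19 to 29 CYC head sites each. At 8 CLK and 6 CYC sites of head, 9 CLK and 5 CYC sites of testis and 4 CYC sites of ovary, the ends of 3 or more genes lay within 500 bp.

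The most crowded site of head was a CLK peak of 450 bp at 3R 18255283 to 18255733, with ends of 4 genes in reach. These were Polr2D, which encodes an RNA polymerase II subunit, Ada2a, which encodes an adaptor of histone acetyltransferase complexes, Tgs1, which encodes the enzyme that trimethylates RNA caps, and moi, which encodes a telomere capping protein. Polr2D and Ada2a are annotated over the same span (3R 18252843 to 18255487), with their common end 21 bp from the midpoint. The 2 nearest genes had the same start and end at 16 of the 552 peaks, among them 6 CLK peaks of head and 7 CLK peaks of testis, and such pairs counted as nested. A CYC peak of testis at 2R 24122771 to 24123003 (232 bp) likewise had 4 genes in reach, CG43776, CG43777, CG43775 and CG3257. In head, a CYC peak of 603 bp at 2R 17572418 to 17573021 covered the space of 44 bp between UQCR-6.4, which encodes a subunit of respiratory complex III, and CG42239, with POSH, a gene for a scaffold protein with ubiquitin ligase activity, as the third.

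Head and testis sites lay at differently arranged genes. The 2 nearest genes lay apart, with no base in common, at 84.5% of CLK head sites (109 of 129, 77.1 to 90.3%) and 89.6% of CYC head sites (86 of 96, 81.7 to 94.9%). They lay apart at 58.3% of CLK testis sites (84 of 144, 49.8 to 66.5%) and 54.4% of CYC testis sites (37 of 68, 41.9 to 66.5%). For ovary this held at 4 of 4 CLK sites and at 80.2% of CYC sites (89 of 111, 71.5 to 87.1%). Over all arm bases that met the rule the value was 72.0%, which lay between head and testis. Genes that overlapped in part made up most of the remainder in testis, at 51 CLK and 26 CYC sites, against 7 CLK and 6 CYC sites of head.

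**Figure D2:**
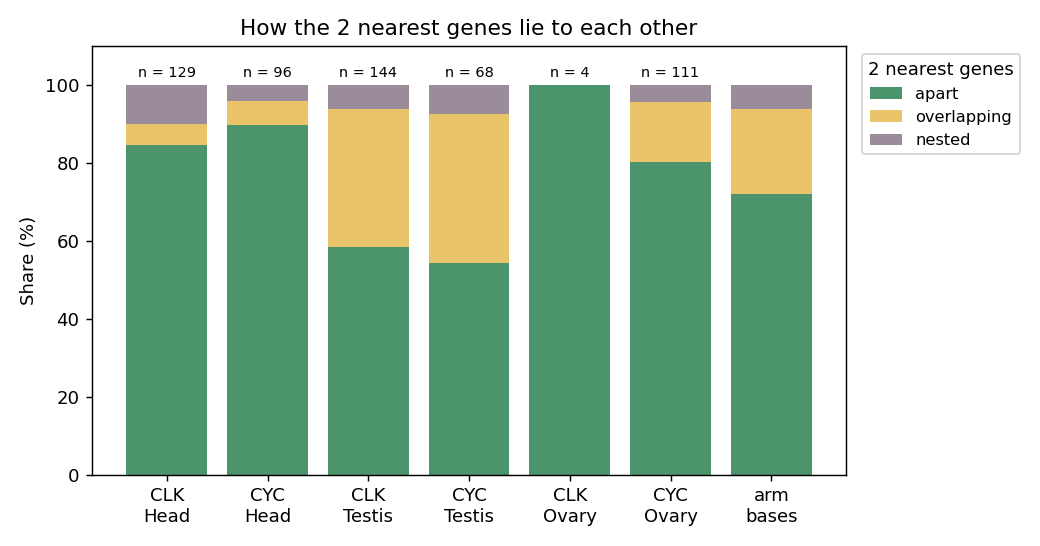
Share of sites (%, y axis) by how the 2 nearest genes lie to each other, for each list (x axis, n sites above each bar) and for all arm bases within 500 bp of ends of 2 or more genes; colours mark genes apart, overlapping in part or nested. Genes apart make up 84.5% and 89.6% in head, against 58.3% and 54.4% in testis.

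Head exceeded testis in this share by 26.2 points for CLK and by 35.2 points for CYC (exact Fisher test, two-sided, BH-adjusted p = 1.08e-05 and 3.64e-06). CYC of testis minus CYC of ovary was -25.8 points (exact Fisher test, BH-adjusted p = 0.00109), and CYC of head minus CYC of ovary was 9.40 points (exact Fisher test, BH-adjusted p = 0.185). CLK minus CYC was -5.09 points in head and 3.92 points in testis (exact Fisher test, BH-adjusted p = 0.485 and 0.844). With a window of 250 bp, which left 57 CLK and 45 CYC sites of head and 40 CLK and 19 CYC sites of testis, the head and testis differences were 18.9 and 31.8 points and did not pass. That of CYC in testis and ovary passed neither there (-23.2 points) nor in the widest 50% of peaks (-25.7 points).

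Where the 2 genes lay apart, the rule itself limits the space between them to about 1000 bp. The median space was 170 bp at CLK sites of head (3 to 665 bp), 170 bp at CYC sites of head (9 to 576 bp), 103 bp at CLK sites of testis (0 to 778 bp), 83.0 bp at CYC sites of testis (2 to 780 bp) and 222 bp at CYC sites of ovary (1 to 858 bp). Over arm bases that met the rule with genes apart, the median space was 189 bp, below the value for CYC in ovary and above those of head and testis. Spaces of 200 bp or less were found at 57.8% of such CLK and 58.1% of such CYC sites in head, at 75.0% and 70.3% in testis, and at 47.2% for CYC in ovary. The space at CLK sites of ovary was 7 to 457 bp over 4 sites. These spaces are a property of the annotation at the sites and were not tested.

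**Figure D3:**
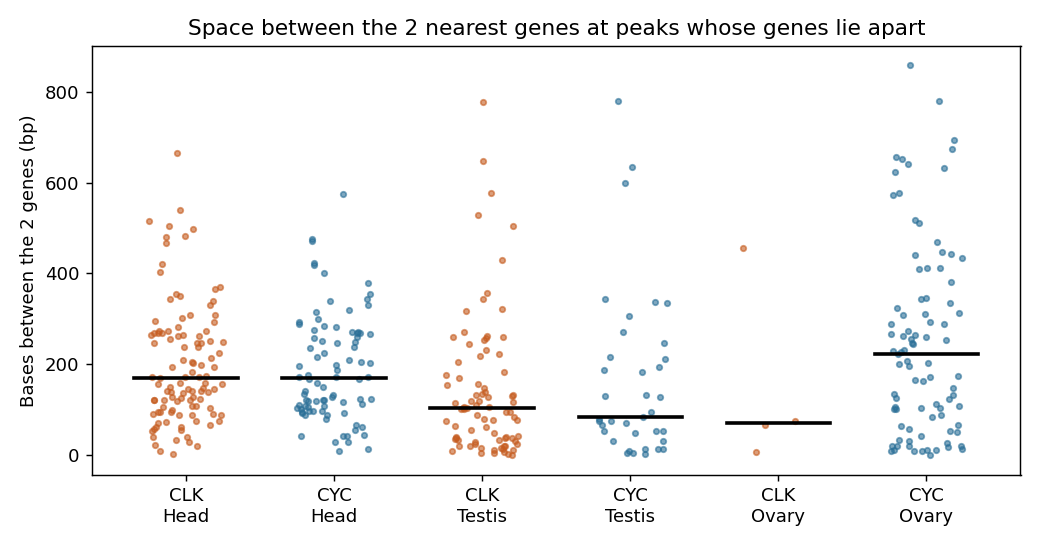
Bases between the 2 nearest genes (bp, y axis) at each site whose genes lie apart, by list (x axis); points are sites and black lines medians. For CLK and CYC the medians are 170 and 170 bp (head), 103 and 83.0 bp (testis) and 70.5 and 222 bp (ovary).

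Peaks at sites of head covered a gene end more often than peaks at sites of testis did, and the same order of values held for peaks near 1 gene. At least 1 of the 2 nearest ends was covered at 60.5% of CLK sites (78 of 129) and 69.8% of CYC sites (67 of 96) in head, against 29.2% of CLK sites (42 of 144) and 26.5% of CYC sites (18 of 68) in testis. The differences were 31.3 points for CLK and 43.3 points for CYC (exact Fisher test, BH-adjusted p = 1.08e-06 and 4.22e-07). Of peaks near exactly 1 gene, 42.1% of CLK and 36.4% of CYC peaks covered its end in head (133 of 316 and 43 of 118), against 18.1% and 22.6% in testis (66 of 364 and 47 of 208), where a peak had 1 end to cover in place of 2. Of peaks near any end, 335 of 445 CLK and 166 of 214 CYC peaks of head lay within 250 bp of one, against 195 of 508 and 118 of 276 of testis. The coverage is thus not shown to be particular to sites between gene ends. In ovary 44.1% of CYC sites did so (49 of 111), so that CYC of head exceeded CYC of ovary by 25.6 points (exact Fisher test, BH-adjusted p = 7.60e-04). Both ends were covered at 26 CLK sites (20.2%) and 28 CYC sites (29.2%) in head, at 15 CLK sites (10.4%) and 8 CYC sites (11.8%) in testis and at 11 CYC sites (9.91%) in ovary. With the window of 250 bp, where every midpoint is close to 2 ends, the head and testis differences were 16.4 and 21.9 points and no longer passed. In the widest 50% of peaks the CYC difference between head and ovary was lost (26.4 points).

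Midpoints lay inside exactly 1 gene of the pair at 86 CLK and 65 CYC sites of head, 120 CLK and 54 CYC sites of testis and 74 CYC sites of ovary. They lay outside both genes at 35 CLK sites (27.1%) and 26 CYC sites (27.1%) of head, at 18 CLK sites (12.5%) and 9 CYC sites (13.2%) of testis and at 34 CYC sites (30.6%) of ovary, beside 26.7% of the arm bases that met the rule. The median distance from the midpoint to the end of the second nearest gene was 282 bp for CLK and 268 bp for CYC in head. It was 346 and 360 bp in testis for CLK and CYC, and in ovary 336 bp for CYC.

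CLK and CYC met at few of these sites, and with the window of 500 bp only the differences of CYC in head from other peaks of its list passed. In head 9 of 129 CLK sites met a CYC peak, which was 6.98% (3.24 to 12.8%), and 9 of 96 CYC sites met a CLK peak, which was 9.38% (4.38 to 17.1%). Over all head peaks on the arms, 11.7% of those of CLK and 28.5% of those of CYC met the other protein. For CYC in head, sites between gene ends met CLK less often than peaks near an end of exactly 1 gene did, at 9.38% against 28.8% (34 of 118), a difference of -19.4 points (exact Fisher test, two-sided, BH-adjusted p = 0.00302). Against peaks near no gene end, of which 41.6% met CLK (57 of 137), the difference was -32.2 points (exact Fisher test, BH-adjusted p = 3.30e-07). The first of these did not pass with a window of 250 bp (-9.55 points, 5 of 45 sites), and the second passed in all 8 alternative settings.

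**Figure D4:**
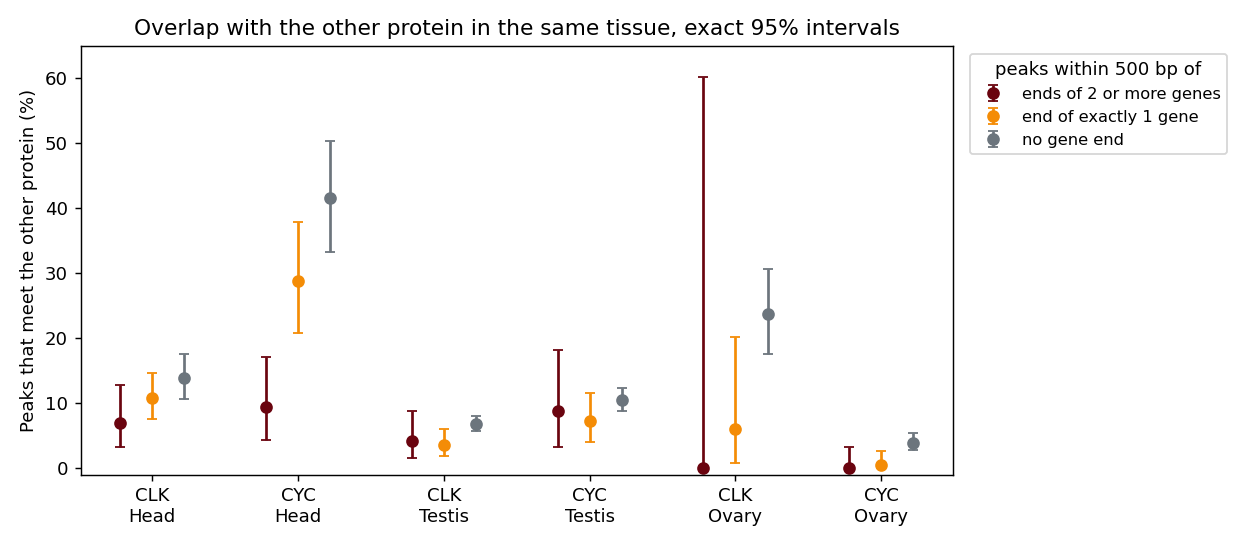
Share of peaks that overlap a peak of the other protein in the same tissue (%, y axis) by list (x axis), for peaks near ends of 2 or more genes, of exactly 1 gene, or of none; points are shares and bars exact 95% intervals. In head, CYC peaks met CLK in 9.38% of cases near 2 or more genes, 28.8% near 1 gene and 41.6% near none.

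CLK sites of head followed the same order of values without passing. They met CYC in 6.98% of cases, against 10.8% near 1 gene (34 of 316) and 13.8% near no gene end (58 of 420), differences of -3.78 and -6.83 points (exact Fisher test, BH-adjusted p = 0.587 and 0.134). In testis 6 of 144 CLK sites (4.17%) and 6 of 68 CYC sites (8.82%) met the other protein, beside 6.09% and 9.92% of all peaks on the arms. The differences from peaks near 1 gene were 0.595 and 1.61 points (exact Fisher test, BH-adjusted p = 1.00 and 0.913), and both turned negative with a window of 1000 bp (-2.28 and -1.73 points). In ovary none of 111 CYC sites met a CLK peak (exact 95% interval 0 to 3.27%, and up to 2.70% by the limit of 3 counts), nor did any of the 4 CLK sites meet a CYC peak, while 20.5% of CLK and 3.08% of CYC peaks on the arms did, so for CYC the exact interval held the share of all peaks. The CYC difference from peaks near 1 gene was -0.483 points (exact Fisher test, BH-adjusted p = 1.00). Whether the head difference of CYC exceeds those of the gonads was not tested.

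Counting regions instead of peaks, the 552 peaks formed 529 sites. Of these, 507 held such peaks of 1 list, 21 of 2 lists and 1 of 3 lists. CLK and CYC of the same tissue shared 14 of the last 22 sites, 8 in head and 6 in testis. With peaks that did not meet the rule counted as well, 26 sites had peaks of 2 or more lists. That added ana2 with CG13751 and Cdc5 with CG1233. It also added MP1 with Vps24, a CLK site of head that met a CYC peak of head. The last was CG10208 with tst, a CLK site of head that met a CLK peak of testis.

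**Figure D5:**
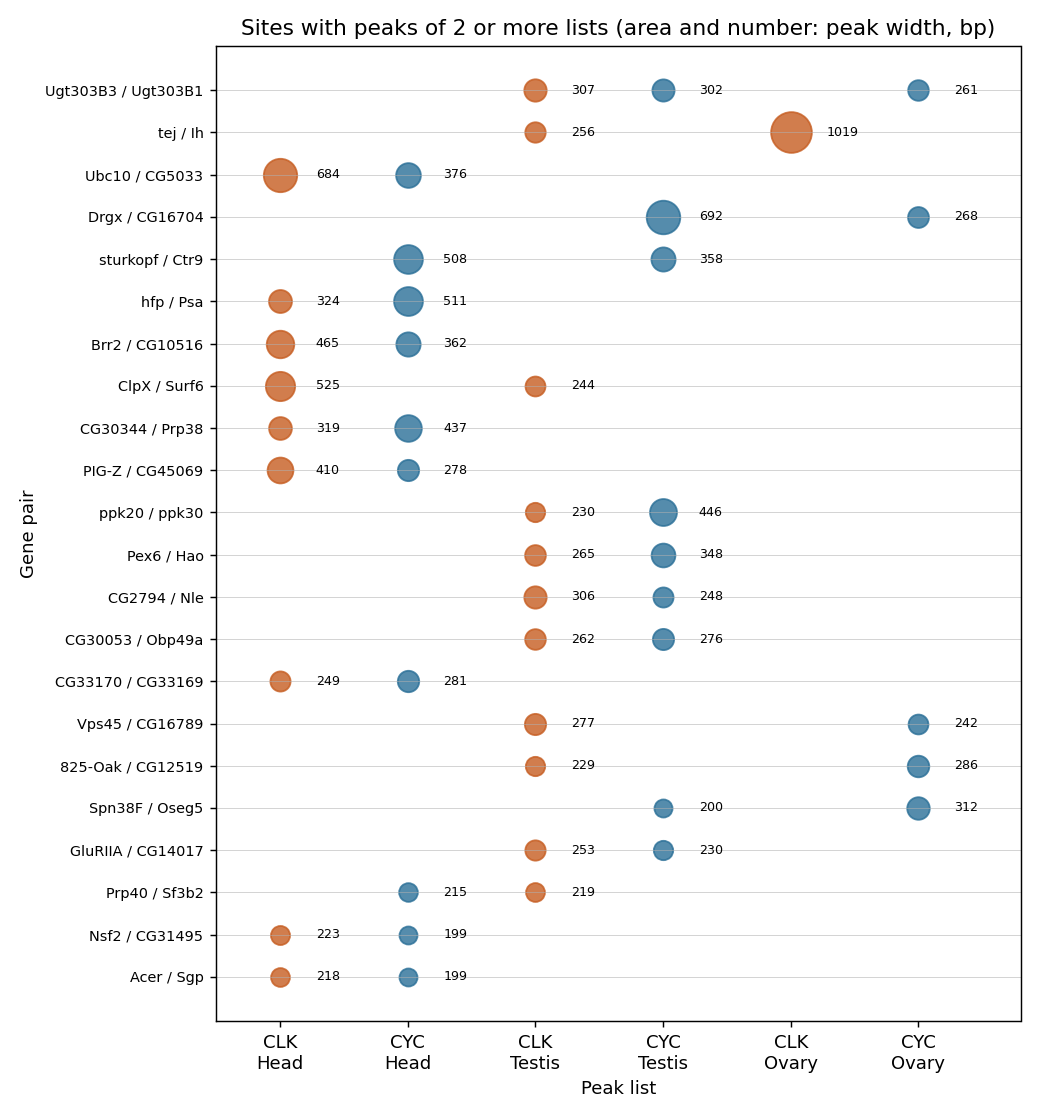
The 22 sites with peaks of 2 or more lists that each met the rule, named by gene pair (y axis), with the lists (x axis) of those peaks; circle area and number give peak width in bp. Ugt303B3 and Ugt303B1 have peaks of 3 lists, and 8 pairs have peaks of CLK and CYC in head.

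In head the 2 proteins met beside genes of several kinds. At Brr2, which encodes a helicase of the spliceosome (3L 15960836 to 15967872), and CG10516 (3L 15968204 to 15969902), the CLK peak at 3L 15967662 to 15968127 was 465 bp wide and the CYC peak at 15967792 to 15968154 was 362 bp wide. Both midpoints lay in the 331 bp between the genes, 22.5 bp from Brr2 for CLK and 101 bp for CYC. At hfp, which encodes a splicing factor (3L 1496853 to 1502590), and Psa, which encodes an aminopeptidase (3L 1502843 to 1523380), the CYC peak was the wider, with 324 bp for CLK (3L 1502250 to 1502574) and 511 bp for CYC (1502319 to 1502830). At CG30344 and Prp38, a gene of the spliceosome, the peaks spanned 2R 9145101 to 9145420 for CLK and 9145006 to 9145443 for CYC, over a space of 108 bp.

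The widest shared peak of head lay at Ubc10, which encodes a ubiquitin-conjugating enzyme. The CLK peak there, at 2R 17788875 to 17789559, was 684 bp wide with a midpoint inside Ubc10. The CYC peak at 2R 17789501 to 17789877 was 376 bp wide. Its midpoint lay inside the next gene, CG5033, 10.0 bp from the end of that gene. The 2 peaks had only their edges in common, so this site counted as shared by overlap while the midpoints lay inside different genes. PIG-Z, a gene of GPI anchor synthesis, and CG45069 are annotated over the same span, and the peaks of 410 bp for CLK and 278 bp for CYC had midpoints 121 and 39.0 bp from their common end. At CG33170 and CG33169 the widths were 249 and 281 bp. The last pairs, which fell outside the naming rule and were chosen after their values were seen, were Nsf2, which encodes an ATPase of vesicle fusion, with CG31495 (223 bp for CLK, 199 bp for CYC), and Acer, a homologue of angiotensin-converting enzyme, with Sgp (218 and 199 bp).

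By gene pair, CLK and CYC of head had 10 in common, which was 7.75% of the CLK and 10.4% of the CYC pairs. The pairs mio with papi and Cdc5 with CG1233 had peaks of both proteins whose member peaks did not overlap. At mio, a gene of a nutrient-sensing complex, and papi, a piRNA pathway gene, the CLK peak (2L 2220799 to 2221079) and the CYC peak (2L 2220454 to 2220682) lay side by side. At Cdc5, a gene of the spliceosome, the CYC peak at 3L 361036 to 361445 also met a second CLK peak at 3L 360849 to 361083, which was not near 2 genes.

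In testis the proteins met at 6 pairs, 4.17% of the CLK and 8.96% of the CYC pairs. The Ugt303B3 and Ugt303B1 site was the only one with 3 lists. These neighbouring genes encode UDP-glycosyltransferases, which attach sugars to small lipophilic compounds, and lie 132 bp apart (3R 23532945 to 23534767 and 23534900 to 23536710). Peaks there were at 3R 23534487 to 23534794 for CLK in testis, 23534499 to 23534801 for CYC in testis and 23534514 to 23534775 for CYC in ovary. Their widths were 307, 302 and 261 bp, and their midpoints lay inside Ugt303B3, 117 to 126 bp from its end. The genes are of 1 family, so reads in similar sequence may be placed at either copy, which was not tested.

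Other testis sites of both proteins lay at ppk20 and ppk30, which encode channels of the DEG/ENaC family (230 bp for CLK and 446 bp for CYC), and at Pex6, a gene of peroxisomal protein import, and Hao, which encodes a hydroxyacid oxidase (265 and 348 bp). Both proteins also met at CG2794 and Nle, a gene of ribosome assembly (306 and 248 bp), at CG30053 and Obp49a, which encodes an odorant-binding protein (262 and 276 bp), and, chosen after values were seen, at GluRIIA, which encodes a glutamate receptor subunit, and CG14017 (253 and 230 bp).

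Sites of 1 protein recurred in another tissue in few cases. A peak of the same protein in another tissue was met by 2 of 129 CLK (1.55%) and 1 of 96 CYC sites (1.04%) of head, by 2 of 144 CLK (1.39%) and 4 of 68 CYC sites (5.88%) of testis and by 1 of 4 CLK and 3 of 111 CYC sites (2.70%) of ovary. All peaks on the arms did so in 3.01% (CLK) and 2.56% (CYC) of cases for head, 2.57% and 8.44% for testis, and 15.2% and 8.70% for ovary. None of the 6 differences from peaks near 1 gene passed (exact Fisher test, lowest BH-adjusted p = 0.849), and with counts of 1 to 4 a difference of a few points could not be detected. With a window of 1000 bp the difference of CLK in testis passed, at -2.95 points.

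The recurring sites joined head with testis, or testis with ovary, and none joined head with ovary, where CLK of ovary had only 4 sites. How many of all peaks were shared by head and ovary was not counted, so this absence is not shown to be particular to the sites. CLK of head and of testis met at ClpX, which encodes a subunit of a mitochondrial protease, and Surf6, a gene known in mammals for a nucleolar protein, with peaks of 525 and 244 bp (3R 19903607 to 19904132 and 19903775 to 19904019). These genes overlap by 25 bp, and both midpoints lay inside 1 gene. CYC of head and of testis met at Ctr9, which encodes a subunit of the Paf1 elongation complex, and sturkopf, a gene of a lipid droplet protein, which overlap by 87 bp (508 and 358 bp). CYC of head and CLK of testis met at the overlapping pair of splicing genes Prp40 and Sf3b2 (215 and 219 bp), a site chosen after its values were seen. Both peaks lay inside Sf3b2 and outside Prp40. By pairs, Polr2D with Ada2a and CG3402 with MED30 had CLK peaks in head and in testis that did not overlap.

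CLK of testis and of ovary met at tej, which encodes a Tudor domain protein of the germline piRNA pathway, and Ih, which encodes a cation channel gated by hyperpolarization. The genes lie 7 bp apart, and the peaks were 256 bp wide in testis (2R 14299752 to 14300008) and 1019 bp wide in ovary (2R 14299626 to 14300645). CYC of testis and of ovary met at Drgx, a homeobox gene, and CG16704, with 692 and 268 bp, and at Spn38F, a serpin gene, and Oseg5, a gene of intraflagellar transport, with 200 and 312 bp. The testis midpoint of the last lay 500.0 bp from Oseg5, at the limit of the rule. CLK of testis and CYC of ovary met at Vps45, a gene of vesicle trafficking, with CG16789 (277 and 242 bp) and beside CG12519 (229 and 286 bp). The Spn38F, Vps45 and CG12519 sites were chosen after their values were seen. The pair CG33120 with CG31752 had peaks of the same 2 lists that did not overlap.

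In head, the widest sites were called for 1 protein, with the exception of that at Ubc10. For CLK they lay at CG12301 and mrn, which encodes a subunit of the transcription factor TFIIH (3L 15580324 to 15581235, 911 bp), at PAN2, which encodes a subunit of a poly(A) nuclease, and AIMP1, which encodes a protein of the tRNA synthetase complex (2R 8927878 to 8928595, 717 bp), at Ubc10, and at I-2, a gene for an inhibitor of protein phosphatase 1, and Cdk8, which encodes the kinase of the Mediator complex (3L 9836535 to 9837214, 679 bp). For CYC they lay at ana2, a centriole duplication gene, and CG13751 (2R 8899478 to 8900141, 663 bp), at CG3618 and Pka-R1, which encodes a regulatory subunit of protein kinase A (3L 20815644 to 20816256, 612 bp), at UQCR-6.4, and at Arms and CG9752 (2R 21295670 to 21296269, 599 bp). The ana2 peak also met a CLK peak of testis at 2R 8899004 to 8899655, which was not near 2 genes.

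In testis the widest CLK site lay at the trypsin genes alphaTry and epsilonTry (2R 11344365 to 11345365, 1000 bp), with its midpoint inside alphaTry. It was followed by ND-B12, which encodes a subunit of respiratory complex I, with Rae1, a gene of mRNA export (2R 21658653 to 21659603, 950 bp), by CG6066 with CG5815 (3R 27115217 to 27115910, 693 bp) and by Ada1-1 with CG18787 (2L 11997957 to 11998597, 640 bp). For CYC the widest lay at DNAlig1, which encodes a DNA ligase, and Upf3, a gene of nonsense-mediated mRNA decay (2R 23893004 to 23893806, 802 bp), at Drgx and CG16704, at Sr-CIV, a scavenger receptor gene, with CG8851 (2L 3522219 to 3522837, 618 bp) and at CG34428 and CG14115 (3L 13061360 to 13061850, 490 bp).

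The 4 CLK sites of ovary were 219 to 1648 bp wide. The widest lay at the esterase genes alpha-Est9 and alpha-Est10 (3R 7493352 to 7495000), followed by tej with Ih, CG9813 with CG8870 (3R 13379263 to 13379519, 256 bp) and CG9920 with CCHa1, which encodes the neuropeptide CCHamide-1 (3R 14097089 to 14097308, 219 bp). For CYC in ovary the widest were at CG43850 and CG42784 (2L 13414683 to 13415527, 844 bp), at CG32073 and CG12522 (3L 11107541 to 11108102, 561 bp), at arr, which encodes a Wnt co-receptor, and Golgin97 (2R 13453442 to 13453941, 499 bp), and at cic, which encodes a transcriptional repressor, and CG4367 (3R 20303382 to 20303812, 430 bp).

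No difference in width from peaks near 1 gene passed. Medians were 295 bp for CLK and 286 bp for CYC in head, against 284 and 272 bp near 1 gene, and 262 and 276 bp in testis, against 270 and 267 bp. In ovary the medians were 638 bp over the 4 CLK sites and 283 bp for CYC, against 295 and 276 bp. A width of 400 bp or more was reached by 30 CLK sites (23.3%) and 21 CYC sites (21.9%) of head, by 17 (11.8%) and 8 (11.8%) of testis and by 2 of 4 and 12 of 111 (10.8%) of ovary. Of all peaks on the arms, 19.2% of CLK and 19.9% of CYC peaks reached it for head, 15.7% and 13.4% for testis, and 28.1% and 32.6% for ovary. Against peaks near 1 gene, no list passed (exact Fisher test, lowest BH-adjusted p = 0.339).

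Of the core clock genes, jet alone had a site of this kind. Of 16 genes on the clock list, 12 lie on these arms, and jet, which encodes the F-box protein that acts in the light-driven loss of TIM, had a CLK peak of head. That peak, at 2L 4949876 to 4950080, was 204 bp wide and had its midpoint inside Jon25Biii, a serine protease gene (2L 4949941 to 4950767), 37.0 bp from its end and 194 bp from the end of jet (2L 4948206 to 4949784). Genes at sites of CLK in head were 263 of 11645, or 2.26% of the protein-coding genes on these arms, beside 1 of 12 clock genes (8.33%), a share that rests on a single gene. With 12 genes and background shares this low, the lists with no clock gene say nothing particular about clock genes. Clk, Pdp1, tim and vri had CLK peaks of head, dco and vri CYC peaks of head, and cyc a CLK peak of testis, within 500 bp of an end with no second gene in reach.

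The other gene lists had from 0 to 3 genes at the sites of any peak list, counts too small to set a list apart, and they were not tested. Genes at sites made up 1.68% of all for CYC in head, 2.54% (CLK) and 1.19% (CYC) for testis, and 0.0687% (CLK) and 1.91% (CYC) for ovary. Of 42 proteasome genes, CYC of head had Prosalpha3, Rpn3 and the testis paralogue Prosbeta2R2 (7.14%), CLK of head had Prosalpha7, CYC of testis had Rpt3R and CYC of ovary had Prosbeta4 (2.38% each), and CLK had none in testis or ovary. The Prosalpha7 peak was the widest of these (2R 9847584 to 9848030, 446 bp). The 77 genes listed as ribosomal protein genes were taken by symbols that start with RpL or RpS, and what each encodes, RpL24-like among them, was not checked. Of these, CLK of head had RpL32 with CG7943 (3R 30045888 to 30046351, 463 bp) and CYC of head had RpS29 (1.30% each). CLK of testis had RpS15Ab and RpL24-like (2.60%), and the other lists had none.

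Of 29 spermatogenesis genes, CYC of head had mia and topi, which act in the transcription programme of spermatocytes (6.90%). CLK of head had twe, the meiotic Cdc25 phosphatase gene, and CLK of testis had kmg, a zinc finger gene of spermatocytes (3.45% each). The topi peak (3R 9777920 to 9778182, 262 bp) had its midpoint 9 bp from the end of RpS29 and 108 bp from that of topi. So 1 peak counted for a spermatocyte gene and for a ribosomal protein gene. The twe peak lay inside twe, with its midpoint 198 bp from the end of twe and 462 bp from that of CG4935. Of 14 phototransduction genes on the arms, CLK of testis had the opsin genes Rh4 and Rh6 (14.3%). CYC of testis had the arrestin gene Arr2, CYC of ovary had rdgC, which encodes a rhodopsin phosphatase, and CLK of head had ninaC, which encodes a photoreceptor myosin (7.14% each). The ninaC peak (2L 7377535 to 7377757) covered the end of ninaC and had its midpoint in the 173 bp between ninaC and Wnt10. The Rh6 peak (3R 15484872 to 15485083) lay inside Trissin, a neuropeptide gene. Its midpoint was 248 bp from the end of Trissin and 278 bp from that of Rh6. None of 9 eggshell and yolk genes on the arms had a site in any list.

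Median gene length was 2342 bp at CLK and 2103 bp at CYC sites of head, and 1738 and 2000 bp at those of testis. In ovary it was 2234 bp at CYC sites and 5502 bp over the 8 genes at CLK sites. All protein-coding genes of the arms had a median of 2080 bp, and those in pairs with ends within 1000 bp had 2129 bp. Genes known by a CG number only were 41.1% of those at CLK sites of head and 29.6% at CYC sites of head. In testis they were 43.6% and 47.5% for CLK and CYC, and in ovary 50.7% for CYC. The share was 43.4% of all genes and 41.6% of those in such pairs. Pairs whose symbols share a stem, such as alpha-Est3 with alpha-Est4 or GstZ1 with GstZ2, were 1.55% and 2.08% of the pairs in head, 4.86% and 2.99% in testis and 3.60% for CYC in ovary, none above the 5.53% of all pairs with ends within 1000 bp except CLK of ovary, at 1 of 4. An end of a non-coding gene lay within 500 bp as well at 6 CLK and 6 CYC sites of head, 3 and 3 of testis and 5 CYC sites of ovary.

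The limit of 500 bp cut through a continuous range of distances. Within 25 bp inside the limit the second gene lay at 39 sites, and within 25 bp outside it at 38 peaks that were not counted. Just inside were CLK in head at CG13185 and cuff (499.5 bp) and CYC in testis at Gyc32E and hgo (499.5 bp). Just outside were CLK in head at CG7518 and CG44194 (501.5 bp) and CLK in testis at CG45307 and CG12438 (501.5 bp).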

How the data were processed

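ChIP-seq peaks of CLK and CYC were analysed in head, testis and ovary. The deposited values are start and end positions of peaks (dm6, 3 columns, no header) in 6 lists. They are printed as deposited, widths are end minus start, and whether starts count from 0 or 1 is not stated. Per the submitters' processing notes, tools included MACS2, Bowtie2, fastp, SAMtools, Picard, ChIPseeker and deepTools; per the labels' protocols, chromatin was sheared to 100 to 500 bp. The sources used here give no versions, no peak threshold and no account of how replicates were joined. Lists were matched to tissues by initials. A looser or stricter threshold in 1 list would change its counts and could change its shares.

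Ends of 11645 protein-coding genes came from the NCBI RefSeq table of Release 6 plus ISO1 MT. It holds no strand or sequence, so orientation of pairs and the E-box motif, both planned, were not run and no sequence is printed; whether the 2 nearest genes lay apart, and whether peaks covered their ends, took their place and were chosen after seeing the data. Peaks with midpoints within 500 bp of 2 or more genes were compared by the exact Fisher test, two-sided, with Benjamini-Hochberg adjustment over 9 pairs of lists, 12 tests of the other protein, 6 of other tissues and 6 of width (400 bp), threshold 0.05. Overlap meant 1 bp or more. A likelihood ratio test in a logistic model over peaks compared the odds ratio of CLK to CYC between tissues. Intervals are exact Clopper-Pearson (95%) and cover the counting of peaks only; depth is unknown. Shares of arm bases were counted to the last gene or peak, and layouts at every 10th such base. Tests were tried on simulated lists. Python 3.11.15, SciPy 1.17.1 and statsmodels 0.14.6 were used.

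The members, gene lists and rules were chosen with earlier results of these data known. Named were the first 15 shared sites by number of lists and width, the 4 widest of each list, sites at core clock genes, the 3 sites with most genes and sites at listed genes. Alternatives were windows of 250 and 1000 bp, the widest 50% of peaks, no overlapping or nested pairs, 1 peak per gene set, reciprocal overlap of 50%, midpoints within 200 bp, all annotated genes, a width of 300 bp and leaving out regions found in at least 4 lists.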

Additional observations from a re-analysis of the deposited data

Results flagged for a closer look

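The relation of CLK to CYC in the share of peaks near ends of 2 or more genes was not the same in each tissue, by a test chosen after seeing the data. The test compares odds ratios of CLK to CYC, odds being members against other peaks. Its p-values therefore do not belong to the differences in points, which are given beside them as description. CLK minus CYC was -12.4 points in head and 1.48 points in testis, which differ by -13.9 points (likelihood ratio test over peaks, BH-adjusted p = 2.70e-06, n = 351 peaks in the smallest list). It was 1.48 points in testis and -6.42 points in ovary, which differ by 7.91 points (BH-adjusted p = 3.07e-05, n = 210 peaks in the smallest list). Head and ovary differed by -6.01 points, and the test did not pass (likelihood ratio test over peaks, BH-adjusted p = 0.110, n = 210 peaks in the smallest list). By odds, CLK lay further below CYC in ovary (1.90% against 8.33%) than in head (14.9% against 27.4%), the opposite order to that in points. The test has peaks as units and holds no error between replicates, and the CLK value of ovary rests on 4 peaks. The second difference did not pass in the widest 50% of peaks (3.70 points).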

How the results depend on the processing

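Of 393 values computed under alternatives, 317 kept their direction and side of the threshold, 31 no longer passed, 11 came to pass and 34 changed sign. The causes were not tested. The window of 250 bp leaves fewer sites, and the widest 50% fewer peaks. Values are differences in points.

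With the window of 250 bp, calls were lost in the share of all peaks for CLK testis minus ovary (1.27), CYC testis minus ovary (-0.838) and CLK minus CYC in ovary (-1.70). In the share among peaks near an end they were lost for CLK head minus ovary (8.68), CLK testis minus ovary (12.2), CYC head minus testis (11) and minus ovary (11.1), and CLK minus CYC in head (-10.1) and ovary (-7.69), while CLK head minus testis (-3.50) and CYC testis minus ovary (0.0796) changed sign. For genes apart, head minus testis (18.9 for CLK, 31.8 for CYC) and CYC testis minus ovary (-23.2) were lost. For covered ends, head minus testis was lost (16.4 and 21.9), and CYC testis minus ovary (4.72) and CLK minus CYC in testis (-11.2) changed sign. For the other protein, CYC in head against 1 gene was lost (-9.55), and CLK (1.32) and CYC (5.51) in testis against no gene changed sign. For other tissues, CYC head (0.569), CLK testis (3.06) and CYC ovary (-1.32) changed sign, as did width for CLK in testis (0.323).

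With 1000 bp, CLK minus CYC in testis came to pass (5.64 of all peaks, 7.81 near an end). So did, for covered ends, CLK testis minus ovary (-24.6), CYC testis minus ovary (-14.0) and CLK minus CYC in head (-13.6), for the other protein against no gene, CLK in head (-7.13) and testis (-3.43), and for other tissues, CLK testis (-2.95). Signs changed for genes apart in CLK head minus ovary (5.67) and CLK minus CYC in ovary (-0.202), and for covered ends in CLK head minus ovary (0.962) and CLK minus CYC in testis (-0.147). They also changed for the other protein against 1 gene in CLK testis (-2.28), CYC testis (-1.73), CLK ovary (6.50) and CYC ovary (0.0192), for other tissues in CLK head (-3.01), CYC testis (-0.575) and CYC ovary (-2.73), and for width in CYC testis (-0.572) and CLK ovary (-3.00).

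In the widest 50%, calls were lost for the share of all peaks in CLK testis minus ovary (3.32), CYC testis minus ovary (-0.381) and CLK minus CYC in ovary (-3.37). Near an end they were lost for CLK head minus ovary (21.1), CLK testis minus ovary (15.7), CYC head minus ovary (15.9), CYC testis minus ovary (-6.59) and CLK minus CYC in ovary (-22.2). Lost too were CYC testis minus ovary for genes apart (-25.7), CYC head minus ovary for covered ends (26.4) and the protein difference of testis minus that of ovary (3.70). Signs changed for CLK minus CYC in testis for genes apart (-7.86) and covered ends (-6.19), for the other protein in CLK testis against 1 gene (-2.58), for other tissues in CYC head (0.105) and for width in CYC testis (-0.375).

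Without overlapping or nested pairs, CLK testis minus ovary (1.85 of all peaks, 7.94 near an end) and CLK head minus ovary near an end (14.8) were lost. CLK head minus testis near an end (6.90) and CYC testis minus ovary for covered ends (-24.0) came to pass, and signs changed for CYC testis against no gene (0.330), other tissues in CLK head (-0.348) and width in CYC testis (-0.247). With all annotated genes, CLK testis minus ovary (13.2) and CYC head minus ovary (6.56) near an end were lost. With 1 peak per gene set, CLK minus CYC in testis came to pass (1.57). With a reciprocal overlap of 50%, signs changed for the other protein in CLK testis against 1 gene (-0.114) and for other tissues in CLK ovary (-12.1), as with midpoints within 200 bp (-15.2).

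No paired analysis was possible because each list stands for the replicates of 1 protein and tissue together. Lists without each replicate were not analysed here, and depth is unknown.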
